A study of Mus musculus with 24 samples.

Results

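Ears that carried the psoriasis-associated E138A change in Card14 for 1 month were compared with wild-type ears of the same time point. The comparison covers 12 of the 24 RNA sequencing libraries of the study, 6 from mutant and 6 from wild-type ears, chosen by their labels and not by any measured value. All 12 came from whole ears of C57BL/6 mice, and all groups, wild type included, had 3 daily tamoxifen injections into the peritoneum. The mutant mice, labelled CARD14E138A, come from the Card14LSL-E138A strain, in which a stop cassette between lox sites (LSL) holds back the mutant product of the mouse's own Card14 locus until CreERT2, switched on by tamoxifen, removes it. The controls are labelled Wt. The promoter that drives CreERT2, whether wild-type mice carry it, and the age and sex of the animals are not given in the sources read for this work. The other 12 libraries, at day 5 counted from the first injection, enter only where the mutant effect is compared between the times. No label states that each sample is a different animal, and a p-value here therefore reflects only how far these samples scatter.

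In keratinocytes the scaffold CARD14 joins BCL10 and MALT1 to switch on NF-κB. Gain-of-function changes in it cause pustular and plaque psoriasis in people, and psoriasis is known for thickened epidermis, loss of the normal cornified layer, neutrophils and the IL-23 and IL-17 cytokines. A whole ear holds epidermis, hair follicles and sebaceous glands on a dermis with fat, muscle and cartilage, so RNA from all of these is read together. A lower level in such bulk RNA can mean fewer cells of a type, less RNA per cell or a larger share of the counts from other tissue. These cannot be told apart here.

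The residue changed in this strain is read from a coding exon of Card14 (GRCm38 chromosome 11, 119307768 to 119345375, plus strand). The reference coding bases around it, chromosome 11, 119322625 to 119322657, are shown because the allele differs from wild type in this codon, with the glutamate codon of the changed residue in capitals. The mutant codon is not in the sources used here, and the counts do not separate the alleles.
Card14 codon and neighbours: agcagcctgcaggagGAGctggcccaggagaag

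Card14 RNA was lower in the mutant ears. The lowest, median and highest wild-type libraries held 32.3, 39.2 and 49.7 CPM (counts scaled by library size to a common total of 1e6), and the mutant libraries 9.81, 12.9 and 24.5 CPM. Every mutant library lay below every wild-type library, a log2 fold change of -1.53 ± 0.22 (SE, quasi-likelihood test of edgeR, Benjamini-Hochberg adjusted p = 1.31e-04). Without the 7 libraries set apart by GC content in the next paragraph, which leaves 1 mutant library, it was at -0.75 and not called (adjusted p = 0.145). This level is no check of the genotype labels, since the allele is read from its own locus in both groups.

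The 12 libraries had 19255028 to 23904976 counts in wild type and 20608274 to 23022149 in mutants. Genes of keratinocytes, muscle, cartilage and fat were read in all 12, among them Krt15 (1559 to 2738 CPM in wild type), Myh1 (1323 to 2324 CPM), Chad (278 to 1060.3 CPM) and Plin1 (69.5 to 161 CPM). The libraries also differed in composition by GC content within both groups. The Pearson correlation, over genes, of a library's deviation from the mean log2 CPM with gene GC content ran from -0.465 to 0.478 in wild type and from -0.522 to 0.543 in mutants, and in 7 of the 12 libraries (wild type 1 and 2, mutants 1, 3, 4, 5 and 6) it was over 0.4 in size. At day 5 it stayed between -0.195 and 0.198. Principal component 1 of log2 CPM, 50.1% of the variance, parted the genotypes, and component 2, 30.8%, followed this GC correlation. Within the 6 mutant libraries component 1 also varied with it (Pearson correlation 0.896, a description, against 0.037 within the 6 of wild type). The summed CPM of 4 Y-linked genes also differed widely within the groups, from 45.2 to 273.9 in wild type and 18.3 to 223.7 in mutants, while Xist was at most 0.124 CPM in all 12. In both groups this Y-linked sum was highest in the library of lowest GC correlation and lowest in the library of highest. The cause was not tested.

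**Figure D1:**
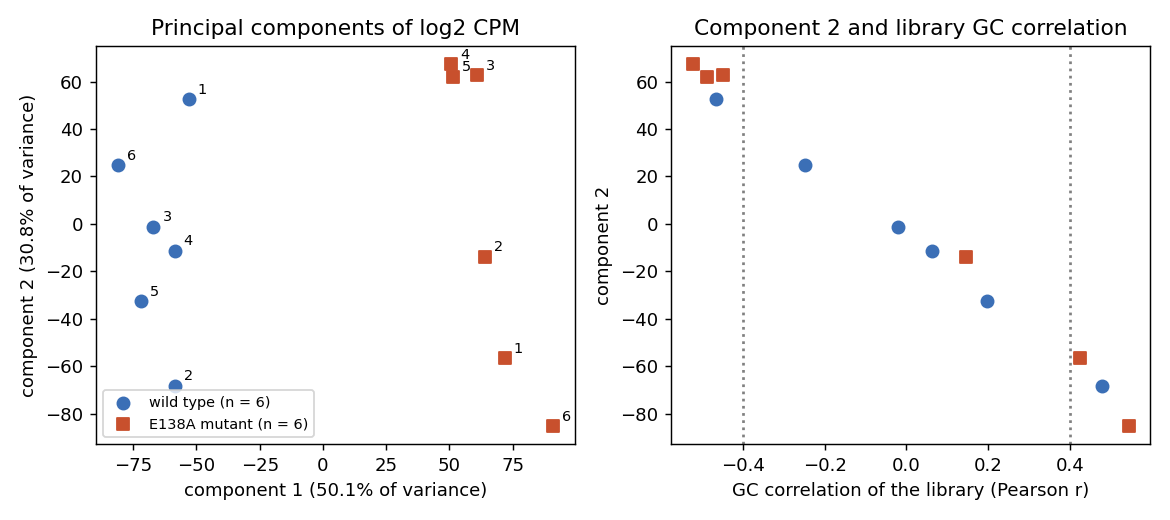
Left, the 12 libraries of 1 month on the first and second principal components of log2 CPM, numbered by replicate. Right, the second component against the library GC correlation, with dotted lines at 0.4 in size. The genotypes separate on the first component, and libraries of both genotypes spread along the second.

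Of 16695 genes tested, 3110 (18.6%) were higher and 2945 (17.6%) lower in mutant ears at an adjusted p below 0.05 (edgeR quasi-likelihood test), 36.3% in all. Changes were often large: 500 genes rose and 592 fell by at least 2 on the log2 scale. In 1919 genes (11.5%) every mutant library was above every wild-type library, and in 1603 (9.6%) every one was below. The median log2 fold change over all genes tested was 0.02. Lists of pathway and cell type genes are described below by the share of their tested members called, to be read against 18.6% and 17.6%, and by their median, to be read against 0.02. The members named are those with the smallest adjusted p. Groups without overlap are therefore frequent among named genes by selection (175 of 195) and say nothing about a list as a whole.

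**Figure D2:**
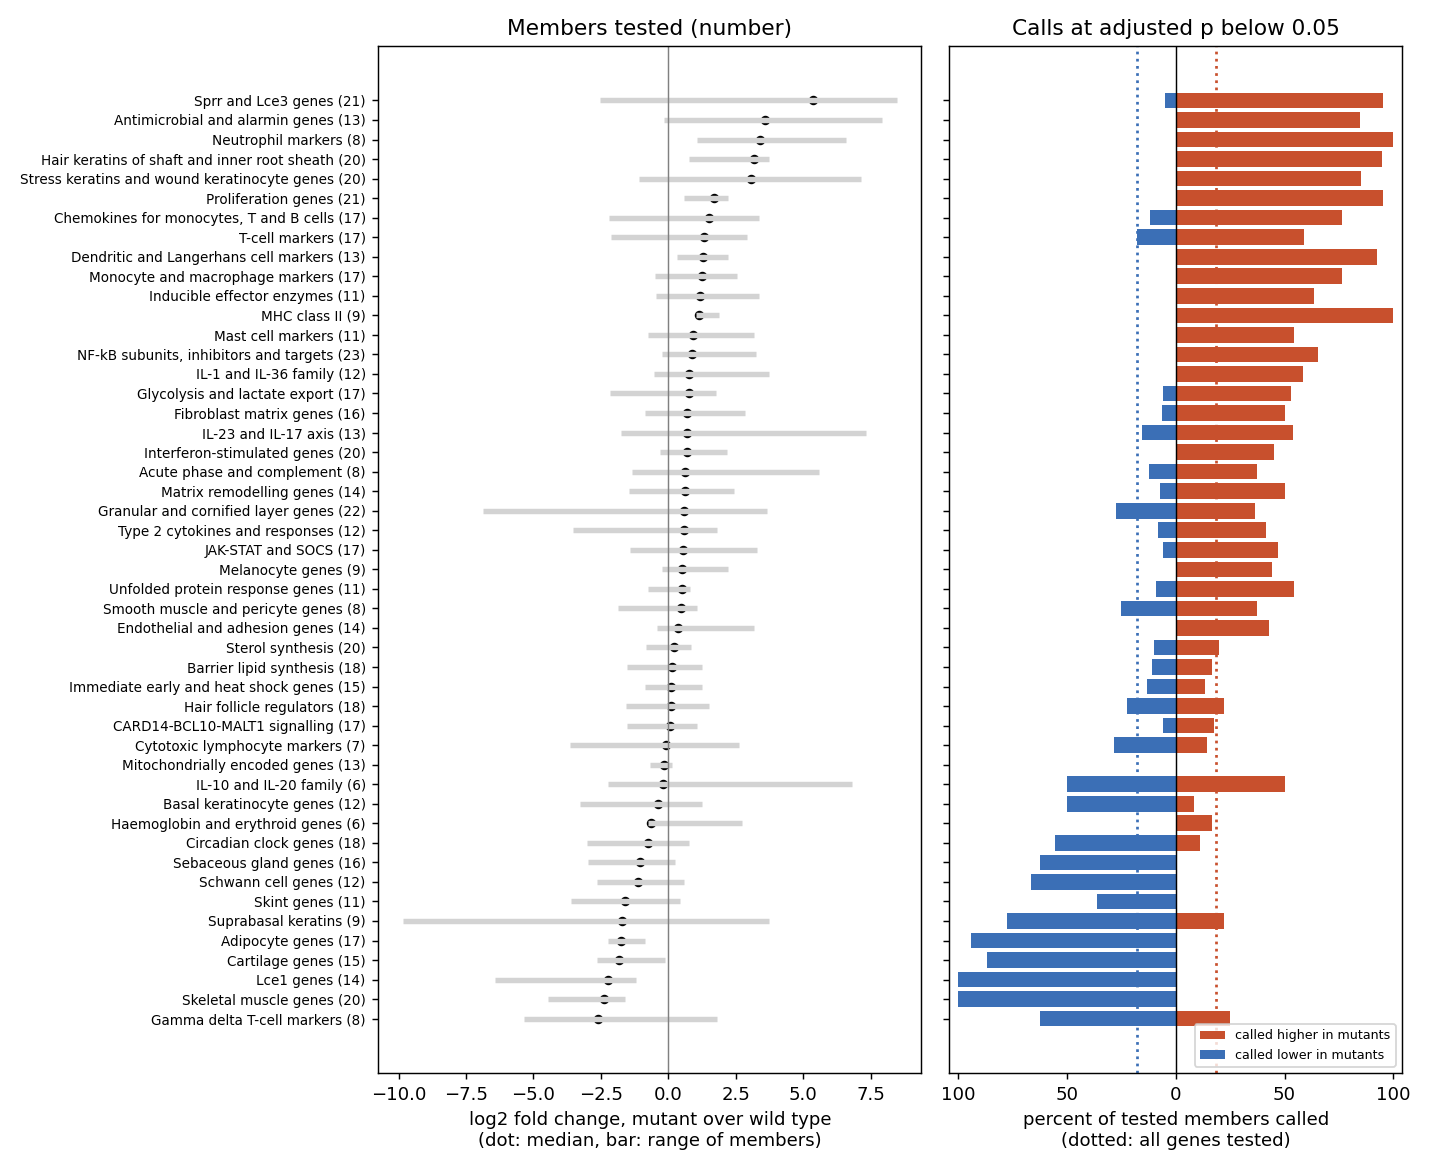
Left, the median (dot) and range (bar) of the log2 fold change of the tested members of each gene list with at least 6 tested. Right, the percent of tested members called higher (right of 0) or lower (left of 0), with dotted lines at the shares over all genes tested, 18.6% and 17.6%.

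The suprabasal keratins changed in opposite directions. Krt24 (GRCm38 chromosome 11, 99279959 to 99285262), a keratin of the upper epidermis, held 166, 202 and 261 CPM in the wild-type libraries and 0.157, 0.209 and 0.299 CPM in the mutants (lowest, median and highest, as in all such triplets below; other ± values are log2 fold changes with SE), a log2 fold change of -9.83 ± 0.23 (SE, adjusted p = 1.39e-11). Krt2 (GRCm38 chromosome 15, 101810689 to 101818169), a keratin of terminally differentiating cells that is abundant in mouse ear skin, went from 5464, 8261 and 10604 CPM to 29.9, 72.2 and 119 CPM (-6.94 ± 0.42). In both genes every mutant library lay far below every wild-type library. Krt1 (GRCm38 chromosome 15, 101845426 to 101850794), the main type II keratin of suprabasal cells, rose instead, from 419, 760.3 and 1743 CPM to 9102, 10679.6 and 15786 CPM (3.74 ± 0.34, adjusted p = 4.64e-06), with no overlap. In all, 7 of 9 tested suprabasal keratins fell and 2 rose, with a median of -1.73, and Krt23 fell by 2.59 ± 0.35.

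The cornified envelope genes parted by family in the same way. All 14 tested Lce1 genes, late cornified envelope genes of normal skin, fell (median -2.25). Lce1m went from 85.2, 104 and 139.5 CPM to 0.498, 0.853 and 2.83 CPM (-6.41 ± 0.43), Lce1l from 34.8 to 65.7 CPM to 0.593 to 9.7 CPM and Lce1c from 48.6 to 104 CPM to 4.24 to 24.4 CPM. In the list of Sprr genes, small proline-rich envelope precursors, and Lce3 genes, envelope genes induced in damaged skin, 20 of 21 rose and 1 fell (median 5.38). Sprr2b went from 0, 0.0929 and 0.627 CPM to 20.7, 47.6 and 126 CPM (8.47 ± 0.75) and Sprr2d from 0.307, 1.58 and 10.03 CPM to 204, 304 and 526 CPM (6.93 ± 0.76). The pseudogene Sprr2j-ps rose by 7.66 ± 0.53. Genes of these clusters are near copies of each other, so how RSEM shared reads among them can move single values.

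The granular layer list was mixed, with 8 of 22 higher and 6 lower. Flg2 (GRCm38 chromosome 3, 93197278 to 93221391), a filaggrin-like protein of the granular layer, fell from 224, 485 and 726 CPM to 0.0996, 3.56 and 8.56 CPM (-6.86 ± 0.74, adjusted p = 1.63e-05), and mutant library 6, at 0.0996 CPM, was the lowest. Kprp, a keratinocyte proline-rich protein, fell from 119 to 271 CPM to 12.6 to 55 CPM (-2.87 ± 0.35). Tgm3, the epidermal transglutaminase that crosslinks the envelope, rose from 55.2 to 83 CPM to 215 to 382 CPM (2.04 ± 0.17), and Casp14, a caspase of cornification, from 29.8 to 97.4 CPM to 269 to 529.9 CPM (2.50 ± 0.30). None of these 4 genes overlapped between the groups.

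Stress and wound keratinocyte genes rose in 17 of 20 members and fell in none (median 3.08). Krt6a, a keratin of wounded and hyperproliferative epidermis, went from 62.7, 97.5 and 262 CPM to 1724, 3184 and 4540.3 CPM (4.70 ± 0.41). Gjb2, the gap junction protein connexin 26, went from 12.8, 19 and 41.4 CPM to 309, 408 and 531 CPM (4.32 ± 0.30, adjusted p = 9.43e-07). The EGF receptor ligand Areg rose from 0.471 to 1.05 CPM to 5.8 to 11.4 CPM. The protease inhibitors of the stefin A cluster rose with them, Stfa1 by 6.71 ± 0.62 and Stfa3 by 7.09 ± 0.70, and the serpin Serpinb3a by 7.15 ± 0.82.

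Of 12 basal keratinocyte genes 6 fell and 1 rose (median -0.37). Krt15, a keratin of resting basal cells, went from 1559, 1895 and 2738 CPM to 123, 192 and 320.2 CPM (-3.27 ± 0.25, adjusted p = 1.35e-06). Col17a1 (-1.39 ± 0.18) and Lamb3 (-0.94 ± 0.16), parts of the anchorage of basal cells to the basement membrane, and Dst (-1.56 ± 0.29), a linker of that anchorage, were also lower. In the proliferation list 20 of 21 genes rose and none fell (median 1.70). Rrm2, a ribonucleotide reductase subunit, went from 10.9, 13 and 21.3 CPM to 49.3, 58 and 60.8 CPM (2.01 ± 0.17). The mitotic kinase gene Plk1 rose by 2.22 ± 0.19, Ccnb2 (cyclin B2) by 1.80 ± 0.17 and Birc5 (survivin) by 1.73 ± 0.17.

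In barrier lipid synthesis few members were called, with 3 of 18 genes higher and 2 lower, shares near those over all genes. Sptlc2, a subunit of the first enzyme of ceramide synthesis, rose from 37 to 59.7 CPM to 85.1 to 115 CPM (1.06 ± 0.13), and the ceramide synthase gene Cers3 from 23.1 to 55.2 CPM to 77.5 to 143 CPM (1.24 ± 0.21). The lipoxygenase genes Alox12e (-1.53 ± 0.24) and Aloxe3 (-1.35 ± 0.22) fell. In sterol synthesis 4 of 20 rose, among them Sqle (squalene epoxidase) by 0.83 ± 0.14, and 2 fell, shares near or below those over all genes.

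**Figure D3:**
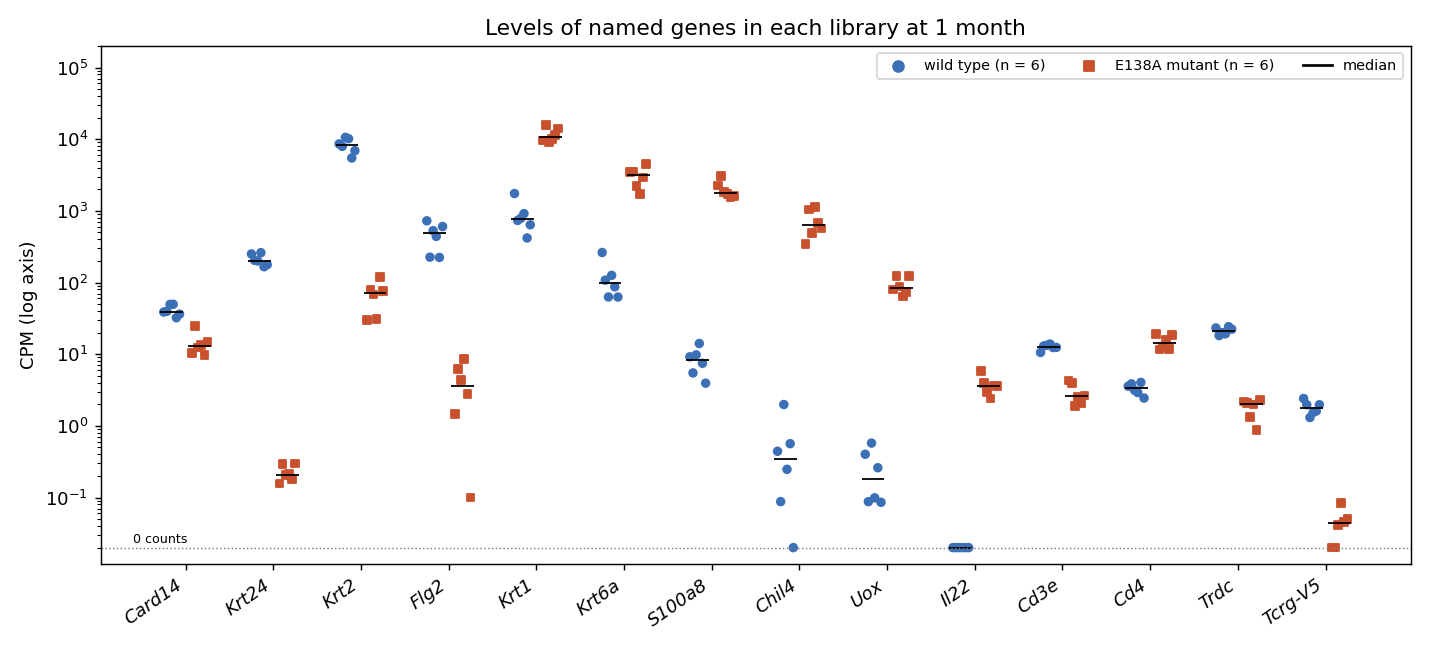
CPM on a log axis in each of the 12 libraries for 14 of the genes described, with wild type as circles, mutants as squares and the median of each group as a line. Points on the dotted line are libraries with 0 counts. In none of these genes do the groups overlap.

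Among genes with a mean of at least 5 CPM in either group, the 12 largest rises were Chil4, BC117090, Uox, Sprr2b, S100a8, S100a9, Sprr2j-ps, Ankk1, Serpinb3a, Stfa3, Adgrg7 and Sprr2d. Uox (GRCm38 chromosome 3, 146570426 to 146632305), the gene of urate oxidase, went from 0.0857, 0.18 and 0.575 CPM to 63.9, 84.1 and 124 CPM (8.50 ± 0.43, adjusted p = 1.17e-07). Ankk1, a kinase-like gene, went from 0, 0.179 and 0.281 CPM to 24, 28.3 and 34.5 CPM (7.39 ± 0.39). The adhesion receptor gene Adgrg7 went from 0 to 0.366 CPM to 4.18 to 22.4 CPM (7.0 ± 0.68). BC117090 had a single count over the 6 wild-type libraries and 8.26 to 12.7 CPM in mutants, a ratio of 1379 (95% counting interval 247 to 54499).

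The 12 largest falls by the same rule, beside Krt24, Krt2, Flg2 and Lce1m, held 9130204L05Rik, Mrgprb3, Mrgprb11-ps, Pyy, Serpinb6d, Serpina12, F830045P16Rik and Paqr7. 9130204L05Rik had no count in the 6 mutant libraries and 5.39, 12.5 and 29.7 CPM in wild type, at least 701-fold lower against a floor of 3 counts over the mutant group. Mrgprb3, a Mas-related receptor gene, had 1 count in all mutant libraries and 3.34 to 6.95 CPM in wild type, a ratio of 716 (95% counting interval 128 to 28325). Its neighbour in name Mrgprb11-ps fell by 6.82 ± 0.48. Serpina12, which codes for vaspin, went from 88.4, 120.2 and 139 CPM to 1.69, 3.08 and 4.78 CPM (-5.25 ± 0.27, adjusted p = 1.17e-07). Paqr7, a membrane progestin receptor gene, went from 223, 314 and 544 CPM to 6.82, 8.51 and 17.5 CPM (-5.04 ± 0.33). Also lower were the serpin gene Serpinb6d (-5.51 ± 0.55), F830045P16Rik (-5.11 ± 0.60) and Pyy, the gene of peptide YY (-5.92 ± 0.75).

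NF-κB signalling genes were then read from the scaffold to the targets. In the list of CARD14, BCL10 and MALT1 signalling 3 of 17 genes rose and 1 fell, Card14 itself (median 0.076). The share higher was near that over all genes, and the share lower was below it. With the library GC correlation as a covariate 5 were called higher and 4 lower. Bcl10, the adaptor that CARD proteins recruit, went from 47.6 to 69.8 CPM to 69.3 to 122 CPM (0.73 ± 0.18, adjusted p = 0.00593), and the groups overlapped. Card9, the related scaffold of myeloid cells, rose from 4.86 to 7.63 CPM to 9.07 to 16.4 CPM (1.05 ± 0.18), and Traf3, an adaptor that restrains the alternative pathway, from 42.7 to 46.6 CPM to 61.6 to 75.2 CPM (0.60 ± 0.095).

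Of 23 NF-κB subunits, inhibitors and targets 15 rose and none fell (median 0.89). Zc3h12a, an RNase that degrades inflammatory mRNAs, went from 22, 26.2 and 33.5 CPM to 173, 235 and 329.6 CPM (3.14 ± 0.20, adjusted p = 4.62e-07). The nuclear IκB-family genes Bcl3 and Nfkbiz, which work with NF-κB on chromatin, went from 4.07, 5.32 and 8 CPM to 34, 51.8 and 76.8 CPM (3.25 ± 0.24) and from 12.1, 22.7 and 28.2 CPM to 76.2, 105 and 122 CPM (2.17 ± 0.21). Tnfaip2, a TNF-induced gene, rose from 21.9 to 39.8 CPM to 94.7 to 187 CPM (2.18 ± 0.21). None of these 4 overlapped between the groups. Nfkbia, the classical inhibitor IκBα, was named after its value was seen, to set beside them: it did not pass the test (0.27 ± 0.17, adjusted p = 0.248).

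The promoters of these genes were searched for the κB consensus on both strands, in the 250 bases before each RefSeq start (GRCm38.p6). Among genes of the list with a promoter in the table, 12 of 20 tested held a match (60%), and among those called higher 7 of 13 (53.8%). Over all genes with a promoter 8.23% held one, over the genes tested here 10.8%, over all genes called higher 12.3% and over all called lower 11.3%. The promoters of Tnfaip2 (chr12:111442411-111442660, plus strand), which rose, and of Nfkbia (chr12:55492648-55492897, minus strand), which did not pass the test, are shown because both hold a match close to the start. Capitals mark the match. The promoters of Zc3h12a and Bcl3, which rose more than Tnfaip2, held no match in the bases searched.
Tnfaip2: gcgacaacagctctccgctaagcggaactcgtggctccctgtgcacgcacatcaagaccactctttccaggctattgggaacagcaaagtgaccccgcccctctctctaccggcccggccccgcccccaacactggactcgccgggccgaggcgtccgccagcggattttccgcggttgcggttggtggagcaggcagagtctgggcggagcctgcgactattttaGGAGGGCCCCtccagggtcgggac
Nfkbia: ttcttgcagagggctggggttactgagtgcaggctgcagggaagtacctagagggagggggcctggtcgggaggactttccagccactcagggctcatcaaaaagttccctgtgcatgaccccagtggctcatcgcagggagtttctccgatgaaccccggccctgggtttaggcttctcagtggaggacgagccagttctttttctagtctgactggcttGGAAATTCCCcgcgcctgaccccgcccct
A match is a run of letters, not a measured binding site.

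Cytokine genes of the IL-23 and IL-17 axis rose in 7 of 13 tested members and fell in 2 (median 0.68). Il22 (GRCm38 chromosome 10, 118204942 to 118210047), made by lymphocytes and received by keratinocytes, was without a count in wild type. The mutants held 2.42, 3.62 and 5.8 CPM, which is at least 163-fold higher when wild type is set to 3 counts in all. Il17f, a cytokine that drives neutrophil attractants in epithelia, went from 0, 0.117 and 0.161 CPM to 3.29, 4.09 and 9.94 CPM (5.72 ± 0.53). Il17rb, a receptor for IL-25, was among those that fell (-1.75 ± 0.21, adjusted p = 3.69e-05). Il12b, Il23r and Il17c were too low to test.

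The IL-10 and IL-20 family split evenly, 3 higher and 3 lower of 6. The ligand gene Il19 went from 0, 0.114 and 0.418 CPM to 7.92, 21.3 and 26.3 CPM (6.81 ± 0.57). The receptor genes Il20ra (11.7 to 47.8 CPM to 5.03 to 11.6 CPM, -2.23 ± 0.31) and Il20rb (-0.89 ± 0.18) fell. Of the IL-1 and IL-36 genes 7 of the 12 tested rose and none fell. Il1f6 and Il1f9, which code for IL-36α and IL-36γ of the epidermis, went from 1.4, 4.19 and 10.5 CPM to 39.6, 49.4 and 132 CPM (3.67 ± 0.53) and from 16.7, 33.9 and 39 CPM to 80.00, 129 and 139 CPM (1.93 ± 0.24). Il1b rose by 3.74 ± 0.87 (adjusted p = 0.00414), and the gene of its natural antagonist, Il1rn, by 1.54 ± 0.16.

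In the list of JAK-STAT and SOCS genes, 8 of 17 rose and 1 fell. Lif, a ligand of the IL-6 family, went from 1.56 to 2.85 CPM to 9.04 to 17.3 CPM (2.75 ± 0.22), Stat3 rose by 0.97 ± 0.16 and its feedback inhibitor Socs3 by 1.39 ± 0.18. The faller was the IL-6 receptor gene Il6ra (153 to 272 CPM to 77.9 to 88.3 CPM, -1.41 ± 0.14). Of 20 interferon-stimulated genes 9 rose and none fell, Zbp1, a nucleic acid sensor, by 2.17 ± 0.29 and Oasl2 by 1.46 ± 0.24.

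Type 2 genes were mixed: 5 of 12 tested rose and 1 fell, and Il4, Il5, Il25 and Il31 were too low to test. Il4ra, the IL-4 receptor, went from 36.2 to 58.9 CPM to 86.2 to 250.5 CPM (1.79 ± 0.24), Il1rl1, the IL-33 receptor, rose by 1.59 ± 0.21 and arginase 1 (Arg1) by 1.72 ± 0.33. Retnla, a resistin-like gene of alternatively activated macrophages, fell from 10.9, 15.9 and 30.9 CPM to 0.498, 1.63 and 2.3 CPM (-3.55 ± 0.34, adjusted p = 6.97e-06).

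All 4 tested chitinase and chitinase-like genes rose. Chil4 (GRCm38 chromosome 3, 106201490 to 106219507) showed the largest fitted rise of the genes named by size, from 0, 0.345 and 1.99 CPM to 348, 626 and 1139 CPM (10.36 ± 0.81, adjusted p = 1.84e-06). Chil1 went from 28.5 to 59.9 CPM to 173 to 732 CPM (3.27 ± 0.35), Chil3, a near copy of Chil4, rose by 4.02 ± 0.38, and the chitinase gene Chit1 by 1.0 ± 0.23.

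Antimicrobial and alarmin genes rose in 11 of 13 and none fell (median 3.59). S100a8 (GRCm38 chromosome 3, 90668978 to 90670035) and S100a9, the subunits of calprotectin, went from 3.94, 8.33 and 14.1 CPM to 1575, 1785 and 3092 CPM (7.92 ± 0.38, adjusted p = 7.13e-08) and from 4.76, 11.6 and 23.1 CPM to 1546, 2513 and 3744 CPM (7.77 ± 0.45). Lcn2, a lipocalin that withholds iron from bacteria, went from 3.04, 3.8 and 9.47 CPM to 80.1, 118 and 188 CPM (4.75 ± 0.36). The defensin gene Defb3 had 2 counts in the wild-type group and 2.69 to 6.48 CPM in mutants, a ratio of 295 (95% counting interval 81.4 to 2444).

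All 4 tested neutrophil attractants rose: Cxcl1 from 0.366, 0.667 and 1.14 CPM to 8.78, 12.4 and 21.9 CPM (4.33 ± 0.32), Cxcl5 by 5.79 ± 0.56, Cxcl3 by 3.82 ± 0.50 and Cxcl2 by 3.28 ± 0.96. All 8 tested neutrophil markers rose as well (median 3.39). Their summed level was 8.31 to 43 CPM in the wild-type ears against 732 to 1964 CPM in mutants. BC100530 alone made up 628 to 1891 CPM of the mutant level, and its wild-type range was 1.45 to 27.8 CPM. The mutant sum thus mostly follows this 1 gene and is no measure of the markers as a set. Csf3r, the G-CSF receptor, went from 0.943, 2.18 and 6.19 CPM to 24.9, 35.2 and 58.6 CPM (3.88 ± 0.40), Cxcr2, the receptor of these attractants, from 1.74, 4.68 and 7.47 CPM to 34.5, 35.6 and 45.2 CPM (2.98 ± 0.36), and the collagenase gene Mmp8 rose by 3.51 ± 0.49. Ly6g, Ltf, Ngp, Elane, Mpo, Cxcr1 and Fpr1 were too low to test.

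Genes of monocytes, macrophages and dendritic cells held a larger share of the counts. Of 17 monocyte and macrophage markers 13 rose and none fell (median 1.25), among them Itgam (13.2 to 20.9 CPM to 31.9 to 64.5 CPM, 1.43 ± 0.18), Fcgr1 (2.53 ± 0.40), Ly6c2 (2.13 ± 0.36) and Adgre1, the F4/80 antigen (0.92 ± 0.18). Of 13 dendritic and Langerhans cell markers 12 rose. Flt3, a receptor of dendritic cell growth, went from 3.34 to 5.39 CPM to 12.2 to 22.4 CPM (1.99 ± 0.20), Itgax (CD11c) rose by 1.57 ± 0.16, Fscn1 by 1.97 ± 0.24 and the homing receptor gene Ccr7 by 2.23 ± 0.36. All 9 MHC class II genes rose (median 1.15), with their transactivator Ciita going from 9.73, 10.7 and 14.9 CPM to 30.2, 39.3 and 53.2 CPM (1.87 ± 0.17, adjusted p = 5.05e-06) and H2-Aa from 207 to 376 CPM to 435 to 1026 CPM (1.20 ± 0.22).

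Chemokines for monocytes and lymphocytes rose in 13 of 17 members. Ccl12, a monocyte attractant, rose by 2.72 ± 0.30, Cxcl16 from 23 to 35.7 CPM to 72.6 to 164 CPM (1.88 ± 0.21), and Ccl22, an attractant of CCR4-bearing T cells, by 1.50 ± 0.19. Ccl27a, a keratinocyte chemokine for skin-homing T cells, was one of the 2 that fell, from 16.2, 24.8 and 28.6 CPM to 3.9, 4.36 and 7.63 CPM (-2.19 ± 0.22).

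T-cell genes moved in both directions. Of 17 T-cell markers 10 rose and 3 fell. Cd4 went from 2.44, 3.36 and 4.04 CPM to 11.7, 14.4 and 19.1 CPM (2.17 ± 0.19, adjusted p = 4.40e-06), Foxp3, the factor of regulatory T cells, from 0.281, 0.861 and 0.999 CPM to 3.83, 4.94 and 7.82 CPM (2.91 ± 0.32), and Il2ra, the IL-2 receptor alpha chain, rose by 1.67 ± 0.17. Cd3e, a chain of the receptor complex shared by αβ and γδ T cells, fell from 10.6, 12.7 and 13.9 CPM to 1.9, 2.59 and 4.29 CPM (-2.12 ± 0.22, adjusted p = 1.06e-05). None of these 4 overlapped between the groups.

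The γδ T-cell list fell in 5 of 8 tested members and rose in 2 (median -2.61). Mouse epidermis normally holds dendritic epidermal T cells, whose receptor uses Tcrg-V5 and Trdv4. Tcrg-V5 went from 1.31, 1.79 and 2.41 CPM to 0, 0.0434 and 0.0848 CPM (-5.36 ± 0.42) and Trdv4 from 2.28, 4.08 and 4.45 CPM to 0.183, 0.32 and 0.551 CPM (-3.46 ± 0.28). The constant regions Trdc (18.2, 21.2 and 24.2 CPM against 0.867, 2.04 and 2.29 CPM, -3.56 ± 0.23) and Tcrg-C1 (-3.44 ± 0.39) were lower too. In all 4 the mutant libraries lay below every wild-type library. Tcrg-V4 and Tcrg-V6, segments of other γδ T cells, were too low to test.

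The Skint genes, a keratinocyte family whose founder Skint1 is needed to select these epidermal T cells, fell in 4 of 11 and rose in none (median -1.61). Skint7 went from 1.48 to 14.3 CPM to 0.0498 to 1.31 CPM (-3.62 ± 0.64), and Skint5 fell by 2.77 ± 0.65 with overlapping groups. With the library GC correlation as a covariate 7 of 11 were called lower. Among 7 cytotoxic lymphocyte genes Prf1 (perforin) fell from 6, 6.5 and 8.99 CPM to 0.228, 0.565 and 0.797 CPM (-3.65 ± 0.27, adjusted p = 1.11e-06) as did Nkg7 (-2.03 ± 0.32), while Gzmb (granzyme B) rose from 0.257, 0.488 and 0.784 CPM to 1.95, 3.2 and 4.6 CPM (2.61 ± 0.31).

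Mast cell markers rose in 6 of 11 and fell in none, Fcer1a, the IgE receptor alpha chain, from 0.0857, 0.587 and 1.09 CPM to 3.59, 4.52 and 10.9 CPM (3.19 ± 0.45), the tryptase gene Tpsab1 by 2.40 ± 0.33, Hdc, the enzyme of histamine synthesis, by 1.99 ± 0.39 and Kit by 0.58 ± 0.16. Of 19 B-cell and plasma cell genes 4 could be tested and 3 rose, Igha from 0.257 to 0.94 CPM to 2.6 to 22.2 CPM (3.59 ± 0.59). Cd79a and Ms4a1 were too low to test.

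Hair keratins of the shaft and inner root sheath rose in 19 of 20 (median 3.18). Krt35, a shaft keratin, went from 0.888, 2.59 and 5.26 CPM to 19.5, 34.1 and 72.7 CPM (3.66 ± 0.46), Krt28, of the inner root sheath, from 0.941, 3.68 and 9.72 CPM to 21.8, 48.5 and 99.7 CPM (3.54 ± 0.50), Krt73 by 3.60 ± 0.52 and Krt31 by 3.44 ± 0.54. Their summed level ran from 28 to 418 CPM in the wild-type libraries and from 555 to 3202 CPM in mutants, so the spread within each group was wide. Regulators of the follicle moved both ways: 4 of 18 rose, such as Hoxc13 (1.52 ± 0.29) and Foxn1 (0.81 ± 0.16), which switch on shaft keratins, and 4 fell, such as Foxq1 (-1.56 ± 0.19) and Wnt10b (-1.35 ± 0.24), shares near those over all genes (median 0.086). Sebaceous gland genes fell in 10 of 16 and rose in none (median -1.05). Scd1, a fatty acid desaturase, went from 4400.4 to 7184 CPM to 1713 to 3162 CPM (-1.43 ± 0.20), and lower too were Plin5, a lipid droplet gene (-2.98 ± 0.34), Cidea (-1.39 ± 0.28) and the wax synthase gene Awat2 (-1.25 ± 0.25).

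Genes of the deeper tissues of the ear held a smaller share of the counts. All 20 skeletal muscle genes fell (median -2.39), and their summed level was 9719 to 31533 CPM in wild type against 1541 to 6591 CPM in mutants. Ryr1, the calcium release channel, went from 264, 533 and 749 CPM to 56, 101 and 154 CPM (-2.28 ± 0.27, adjusted p = 3.07e-05). The myosin genes Myh2 (-2.29 ± 0.28), Myh7 (-3.13 ± 0.41) and Myh1 (-1.61 ± 0.23) fell with it. Cartilage genes fell in 13 of 15 (median -1.82): Chad (chondroadherin) went from 278, 605 and 1060.3 CPM to 64.6, 109.9 and 165 CPM (-2.56 ± 0.31), and lower too were Col9a1 (-1.99 ± 0.20), Cnmd (chondromodulin) (-1.86 ± 0.23) and Matn3 (-1.45 ± 0.18).

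Adipocyte genes fell in 16 of 17 (median -1.74). Car3, a carbonic anhydrase of fat, went from 392, 520.0 and 842 CPM to 101, 162 and 193 CPM (-1.87 ± 0.20), the lipid droplet genes Plin1 and Plin4 fell (-1.85 ± 0.23 and -1.82 ± 0.20), as did Pck1 (-2.02 ± 0.21). Schwann cell genes fell in 8 of 12 (median -1.11): lower were Ngfr (-1.69 ± 0.18), Ncmap (-1.84 ± 0.22) and S100b (-2.64 ± 0.32).

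The dermal lists rose or were mixed. Of 16 fibroblast matrix genes 8 rose and 1 fell (median 0.69). Tnc (tenascin C), a matrix protein of wounds, went from 61.8, 92.7 and 132 CPM to 431, 665 and 1098 CPM (2.85 ± 0.27, adjusted p = 6.60e-06), Col3a1 from 2086 to 3299 CPM to 4018 to 11679.7 CPM (1.28 ± 0.26), and Col5a2 rose by 0.90 ± 0.20. Dpt (dermatopontin) fell by 0.85 ± 0.21. In matrix remodelling 7 of 14 rose, among them the protease inhibitor gene Timp1 (2.42 ± 0.39), Mmp12, the macrophage elastase (1.92 ± 0.36), and the aggrecanase gene Adamts4 (1.80 ± 0.24), while Timp3 fell from 1354, 1470.2 and 1982 CPM to 534, 558 and 621 CPM (-1.45 ± 0.14).

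Of 14 endothelial and adhesion genes 6 rose and none fell, led by the selectins that slow leukocytes on vessel walls: Selp went from 3.4, 4.66 and 6.75 CPM to 22.4, 44.5 and 66.3 CPM (3.20 ± 0.28) and Sele from 1.62, 2.26 and 3.3 CPM to 7.77, 11.3 and 28 CPM (2.73 ± 0.36). Of 9 melanocyte genes 4 rose, Ednrb, the endothelin receptor B, by 2.20 ± 0.30 and Tyrp1, an enzyme of pigment synthesis, by 1.02 ± 0.26 with overlapping groups. In smooth muscle and pericyte genes 3 of 8 rose, such as Acta2 (0.72 ± 0.22), and 2 fell, such as Des (-1.88 ± 0.43), desmin, which skeletal muscle also makes.

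Because libraries differed in GC composition, the calls were checked against gene GC content. In the tenth of genes lowest in GC, 31.2% to 42.2%, the median SD of log2 CPM was 0.714 over wild-type and 1.07 over mutant libraries, and 8.29% of genes were called higher and 6.91% lower. In the fourth such group, 46.6% to 48.3% GC, the SDs were 0.317 and 0.340, and 24.6% were called higher and 17.8% lower. Calls were thus fewest where the libraries spread most. With the library GC correlation as a covariate all 6055 called genes kept their call and direction, and with a GC curve fitted for each library and taken as an offset 5813 did and none turned. Both corrections were drawn from the same counts and raised the calls to 9743 and 7866, so they are no independent check. Without the 3 libraries of GC correlation above 0.4, 5172 of the 6055 kept call and direction, and without the 4 below -0.4, 5020 did. In the lowest group, though, the corrections did not give the same balance: called lower were 36.0% of genes with the covariate and 15.6% with the curve, and the median log2 fold change was -0.29 and -0.048.

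The genes of at least 10 CPM that varied most among the mutant libraries were Gm10222, mt-Co3, Gvin1, Gm49339, Trdn and Ogn. In mutants the mitochondrial gene mt-Co3 ran from 0.0996 to 190.1 CPM, with libraries 1 and 6 near 0, and in wild type from 53.2 to 271 CPM (-0.68 ± 1.07, adjusted p = 0.683). Gm10222 (0 to 162 CPM in mutants, -0.47 ± 1.22), Gvin1 (0 to 21.7 CPM, 2.28 ± 0.94, adjusted p = 0.0749) and Ogn, osteoglycin (1.84 to 74.6 CPM, -1.39 ± 0.71), did not pass the test. Ogn was called lower with the GC covariate (-2.25, adjusted p = 5.58e-04) and with the GC curve (-1.66, adjusted p = 0.00177). Trdn, the triadin of muscle, fell by 2.61 ± 0.79 (adjusted p = 0.0201) and Gm49339 rose by 2.82 ± 0.92 (adjusted p = 0.0284), both with overlapping groups. The Gm49339 call was lost without any 1 of wild-type libraries 2, 4 and 6 or mutant libraries 3 and 5, at adjusted p = 0.0503 to 0.0549. Gvin1 was called higher without mutant library 6 (2.55, adjusted p = 0.0115), with the GC curve (1.95, adjusted p = 0.0463), without GC correlations above 0.4 (2.60, adjusted p = 0.0196), in the fit of all 24 libraries (2.30, adjusted p = 0.0158) and with voom (5.15, adjusted p = 0.00624).

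The last comparison asked whether the mutant effect at 1 month differed from that at day 5, by the interaction in a fit to all 24 libraries, and all values of these paragraphs come from that fit. Each gene has 1 estimate of spread there, shared by all 4 groups. The libraries of 1 month differed more in GC composition, so the SEs and adjusted p-values can understate the error at that time. Of 17287 genes tested, 809 (4.68%) had a higher effect at 1 month and 707 (4.09%) a lower one at an adjusted p below 0.05 (edgeR quasi-likelihood test). In this fit 8139 genes were called at 1 month and 7068 at day 5, of which 5152 were called at both times in 1 direction and 185 in opposite directions. Among genes called at 1 month and not at day 5 with a called interaction, 303 were higher and 262 lower in mutants at 1 month.

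Hair and dermal genes were among those with higher effects at 1 month. Of 20 hair keratins 9 had a higher effect and none a lower one by the interaction test (median log2 fold change 0.15 at day 5 and 3.22 at 1 month). Krt31 went from -1.74 ± 1.14 at day 5 to 3.48 ± 0.48 at 1 month (interaction 5.22 ± 1.24, adjusted p = 0.00893) and Krt35 from -0.50 ± 0.92 to 3.70 ± 0.48 (interaction 4.20 ± 1.07, adjusted p = 0.0143). Both were hardly read at day 5, with wild-type and mutant means of 0.137 and 0.0355 CPM for Krt31 and 0.202 and 0.135 CPM for Krt35. The hair gene Krtap3-2 was lower in mutants at both times, at -6.66 ± 0.58 and -1.39 ± 0.39 (interaction 5.27 ± 0.71), and S100a3, a calcium-binding gene of the hair cuticle, was lower at day 5 (-2.41 ± 0.31) and higher at 1 month (2.50 ± 0.27, interaction 4.91 ± 0.41, adjusted p = 4.60e-08).

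Lrrc15, a membrane gene of activated fibroblasts, turned from -1.82 ± 0.48 to 3.05 ± 0.45 (interaction 4.87 ± 0.65), and Car6, a secreted carbonic anhydrase, went from -4.34 ± 0.48 to 0.65 ± 0.36 (interaction 4.99 ± 0.61), the latter not called at 1 month. In the 12-library fit Car6 passed the test once mutant library 5 was left out (0.86, adjusted p = 0.0338). Pitx1, a homeobox gene, was called at 1 month (5.52 ± 0.52) and not at day 5 (0.42 ± 0.68, interaction 5.10 ± 0.93), and the membrane protease gene Tmprss11b was called at both (2.09 ± 0.73 and 6.33 ± 0.59, interaction 4.23 ± 1.11). Day 5 means were low in wild type and mutants, at 0.139 and 0.193 CPM for Pitx1 and 0.119 and 0.539 CPM for Tmprss11b. Without wild-type library 4 of day 5 the Tmprss11b and Krt35 interactions lost their calls (3.76, adjusted p = 0.0925, and 3.64, adjusted p = 0.0828). Of 16 fibroblast matrix genes 11 had a higher effect at 1 month (median -0.75 at day 5, 0.71 at 1 month). The same held for 8 of 9 melanocyte genes (-1.83 and 0.53) and 6 of 9 MHC class II genes (0.16 and 1.17).

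**Figure D4:**
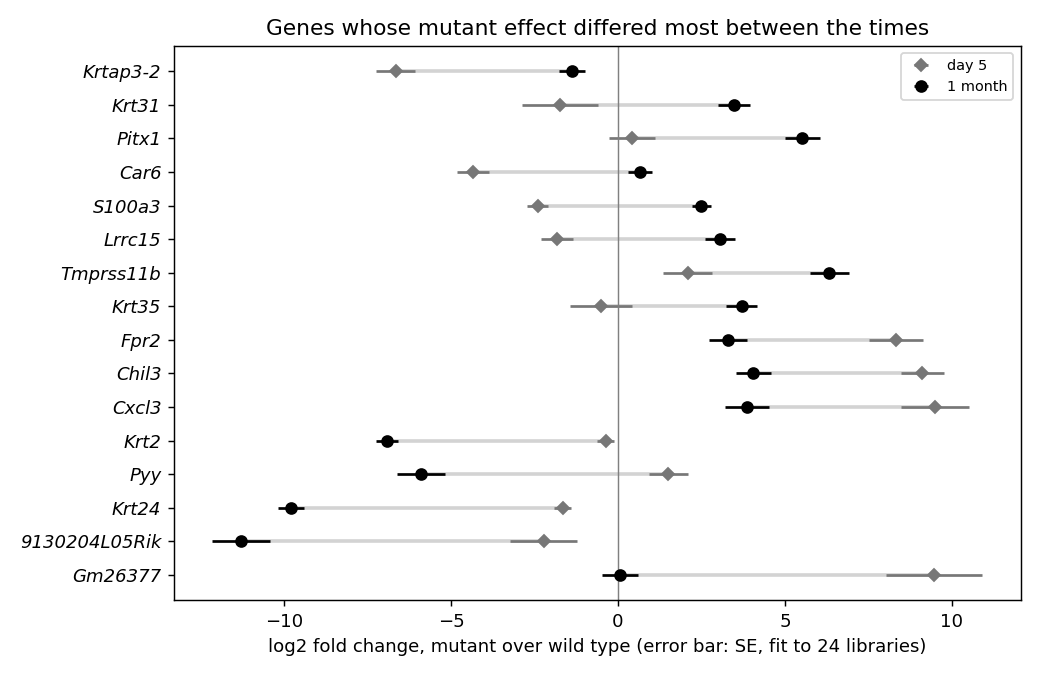
Log2 fold change of mutant over wild type at day 5 (diamonds) and at 1 month (circles), with SE bars, for the 8 largest positive and the 8 largest negative interactions. Fitted values of genes with hardly a count in some group (9130204L05Rik, Gm26377, Cxcl3, Fpr2) depend on the prior count. Krt31, Krt35, Pitx1 and Tmprss11b had means of at most 0.539 CPM in either group at day 5. Krt2 and Krt24 lie far lower at 1 month, and Cxcl3, Chil3 and Fpr2 lie lower at 1 month but above 0.

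Krt2 and Krt24, keratin genes of normal ear epidermis, had much lower effects at 1 month. Of the 9 suprabasal keratins 3 had a lower effect and 1 a higher one (median interaction -0.24). Krt2 did not pass the test at day 5 (-0.37 ± 0.26) and was at -6.91 ± 0.33 at 1 month (interaction -6.54 ± 0.40, adjusted p = 1.51e-10), and Krt24 went from -1.66 ± 0.25 to -9.80 ± 0.38 (interaction -8.14 ± 0.44, adjusted p = 2.43e-11). Pyy turned from 1.51 ± 0.59 to -5.90 ± 0.71 (interaction -7.41 ± 0.92). Card14 itself did not pass the test at day 5 (0.022 ± 0.19) and its interaction was -1.52 ± 0.28 (adjusted p = 8.27e-04). Neutrophil attractants had lower effects at 1 month in 5 of 8 tested in the larger fit (median 7.17 at day 5, 3.84 at 1 month). The mutant mean of Cxcl3 was 11.8 CPM at day 5 and 4.3 CPM at 1 month (interaction -5.64 ± 1.50, not called with the GC curve, -5.42 at adjusted p = 0.0505), and that of Fpr2, a formyl peptide receptor gene of myeloid cells, 5.3 and 1.59 CPM (interaction -5.04 ± 1.21). Chil3 fell back from 9.11 ± 0.65 to 4.05 ± 0.53 (interaction -5.06 ± 0.93). In skeletal muscle 7 of 20 genes had a lower effect at 1 month. Gm26377 was at 0 CPM in wild type and 4.52 CPM in mutants at day 5 but at 31.1 and 32.5 CPM at 1 month (interaction -9.41 ± 1.67), and 9130204L05Rik was at 0.195 and 0.0383 CPM at day 5 and at 15.8 and 0 CPM at 1 month (interaction -9.06 ± 2.24, without a call, -8.45 at adjusted p = 0.0876, when mutant library 1 of day 5 is left out).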

How the data were processed

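Whole-ear mRNA was read single-end on an Illumina instrument after polyA selection, per the labels' protocols. The authors deposited RSEM gene results, that is, expected counts for Ensembl genes with no scaling among libraries, per the file headers. The submitters' processing notes name GRCm38, STAR 2.5.2, RSEM 1.3.0 and DESeq2 1.14.1, without their order. RSEM shares reads among near-identical genes, so single values of the Sprr2, Lce1, Stfa, Mrgprb, Chil3 and Chil4 and Serpinb3 families are uncertain. Expected counts were rounded (6.71% were not whole). The table held 51912 genes, of which 51719 were found in GENCODE M21 (GRCm38), the source of symbols, coordinates and GC content. Columns marked day30 were taken as the 1 month samples.

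The 12 libraries of 1 month were fitted in R 4.3.3 with edgeR 4.0.16 (filterByExpr by group, TMM factors, robust quasi-likelihood, genotype alone), giving two-sided tests adjusted by Benjamini-Hochberg over all genes tested. Effects at both times and their difference came from 1 fit to all 24 libraries. CPM use TMM-scaled totals, and log2 CPM a prior count of 2. Counting intervals are exact 95% intervals and cover counting error only. No library pair was a duplicate within counting noise (lowest chi-square per degree of freedom 15.9). The test was checked on simulated counts, which held no GC differences between libraries, so that check does not cover the GC spread of these libraries. Alternatives, described in the closing section, included DESeq2 1.42.0, voom of limma 3.58.1, GC corrections and leaving out libraries.

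Groups follow the labels. The text names Card14, the 12 largest rises and falls among called genes with a mean of at least 5 CPM in either group, up to 4 members of each list with the smallest adjusted p, the 8 largest interactions each way, and the 6 genes of at least 10 CPM in mutants with the largest SD among mutant libraries. Nfkbia and the genes given as too low to test were added to these. The comparison, lists and alternatives were chosen with earlier results of these data known, and 2 alternatives that leave out libraries by GC correlation were added after seeing the data. Lists carry no set test. Some genes that the rule names are not reported here. Promoter sequences came from RefSeq (GRCm38.p6).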

Additional observations from a re-analysis of the deposited data

Results flagged for a closer look

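For each gene named, the highest and lowest of the 6 libraries of a genotype were compared with the nearest of the others on the log2 CPM scale. A gap whose share of the group's range is above Dixon's 95% critical value marked 27 of 390 groups (6.92%). This share cannot be set against the 1 in 20 of chance. The 390 include groups with no count in any library, which have no range, and some genes were named for their spread. Where 1 library alone held a count (BC117090, Defb3 and Mrgprb3), the gap is the whole range by construction. Wild-type library 5 stood apart 7 times and mutant library 1 4 times.

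High in wild-type library 1 was Defb3 at 0.0804 CPM (others all at 0). Low in wild-type library 1 was S100b at 41.1 CPM (others 99.3 to 157). High in wild-type library 2 were Lif at 2.85 CPM (others 1.56 to 1.89) and S100a3 at 14.7 CPM (others 6.79 to 8.95). Low in wild-type library 2 was Mmp12 at 2.1 CPM (others 4.37 to 5.85). High in wild-type library 3 were BC117090 at 0.0523 CPM (others all at 0) and Lce1l at 65.7 CPM (others 34.8 to 43.7). High in wild-type library 4 was Itgax at 11.3 CPM (others 8.12 to 8.8). Low in wild-type library 4 was Gvin1 at 0 CPM (others 1.17 to 4.43). High in wild-type library 5 were Lcn2 at 9.47 CPM (others 3.04 to 4.65), Prf1 at 8.99 CPM (others 6 to 6.9) and Traf3 at 46.6 CPM (others 42.7 to 43.9). Low in wild-type library 5 were Aloxe3 at 42.6 CPM (others 72.4 to 90.4), Col17a1 at 1096 CPM (others 1822 to 2222), Gm26377 at 8.16 CPM (others 27.3 to 55.7) and Il20ra at 11.7 CPM (others 28.7 to 47.8). Low in wild-type library 6 was Ccl22 at 6.04 CPM (others 9.07 to 10.7). High in mutant library 1 were Dpt at 216 CPM (others 167 to 183), Fcer1a at 10.9 CPM (others 3.59 to 5.16) and Nkg7 at 2.09 CPM (others 0.548 to 0.848). Low in mutant library 1 was Aloxe3 at 16 CPM (others 28.8 to 37.8). High in mutant library 2 were Il1f6 at 132 CPM (others 39.6 to 52) and Orm1 at 55.6 CPM (others 20.9 to 27.1). Low in mutant library 2 was Gm49339 at 0.39 CPM (others 8.22 to 22.7). High in mutant library 5 were Cxcr2 at 45.2 CPM (others 34.5 to 37.2) and Mrgprb3 at 0.0456 CPM (others all at 0). Low in mutant library 6 was Gvin1 at 0 CPM (others 4.14 to 21.7). 

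The mutant effect differed between 1 month and day 5 by the interaction test of edgeR (adjusted p below 0.05) in 809 genes with a higher and 707 with a lower effect at 1 month. Of the genes described, the log2 interaction was above 0 for Krtap3-2 (5.27), Krt31 (5.22), Pitx1 (5.10), Car6 (4.99), S100a3 (4.91), Lrrc15 (4.87), Tmprss11b (4.23) and Krt35 (4.20). It was below 0 for Card14 (-1.52), Gm26377 (-9.41), 9130204L05Rik (-9.06), Krt24 (-8.14), Pyy (-7.41), Krt2 (-6.54), Cxcl3 (-5.64), Chil3 (-5.06) and Fpr2 (-5.04). Genes with hardly any count in a group, such as 9130204L05Rik and Gm26377, have fitted values that depend on the prior count.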

How the results depend on the processing

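The counts of 3110 genes higher and 2945 lower moved by over 1.5 times in some alternatives. They were 4727 and 5016 with the library GC correlation as a covariate, 4622 and 4903 with voom and sample quality weights, 1528 and 1665 for log2 fold changes of at least 1 in size, and 1405 and 1285 without the 7 libraries of GC correlation over 0.4 in size, which left 1 mutant library assumed to vary like the wild type. Without the 3 libraries above 0.4 they were 3008 and 3198, and without the 4 below -0.4, 3353 and 3673. DESeq2 gave 3506 and 3231, and leaving out 1 library at a time 2683 to 3098 higher and 2628 to 3087 lower. The interaction counts, 809 and 707, became 4037 and 4179 with voom, 1512 and 1512 with the GC covariate, 1165 and 1127 with the GC curve, and 637 to 891 and 524 to 853 without 1 library. With the replicate number as a block the counts were 2000 and 1990, and 372 and 290 for the interaction. Same-numbered libraries did not deviate together (correlations -0.753 to 0.269, 1 of 6 above 0.1, none best with its own number). Those deviations include the GC differences between libraries, which could hide a pairing, so nothing is concluded about pairing. The cause of these moves in the counts was not tested, beyond the smaller number of libraries.

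Direction turned for few genes described, all uncalled unless said. Gm26377, in the 12-library fit, was at -0.044 with total counts only, -0.029 without the smaller side of the Y-linked gap (mutant library 6) and -0.032 with that side as a covariate, -0.073 without GC correlations below -0.4, and -0.19 to 0.25 without 1 library. Car6 was at -0.23 and Gm10222 at 1.40 with voom, and without GC correlations above 0.4 Gm10222 was at 0.016 and mt-Co3 at 0.17. Without the 7 libraries Krtap3-2 was at 0.035 and Gm49339 at -1.73, both called with all 12. In that setting 39 other named genes kept their direction but lost their call, Card14 among them (-0.75, adjusted p = 0.145), while 152 kept their direction and their side of the threshold and 2 gained a call, and 20 list medians moved by more than 1 SD between the mutant libraries and 33 by less. The γδ T-cell median was 0.66 with protein-coding genes only, which drops the receptor segments by construction. Calls were lost for Krtap3-2, Gm49339 and Cxcl2 without GC correlations above 0.4, and for Krtap3-2, Gm49339, Ptgs2 and Kit without those below -0.4, each in its direction. The replicate block likewise took the calls of Skint5, Acta2 and Gm49339 and of the Tmprss11b interaction, with direction kept. Gm49339 was also not called without the expression filter. Under the other scalings every described gene but Gm26377 kept its direction and call. Depth limits the genes with few or no counts in a group, for which bounds or counting intervals are given.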

Other observations

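Genes of metabolism and daily rhythm, not described above, also differed between the genotypes at 1 month. In the circadian clock list 10 of 18 genes fell and 2 rose (median log2 fold change -0.74). Npas2, a partner of the activator BMAL1, went from 10.7, 14.1 and 16 CPM to 1.19, 1.82 and 2.29 CPM (-3.0 ± 0.20, SE, edgeR adjusted p = 6.37e-07), and Hlf (-2.46 ± 0.21), Nr1d1, the repressor REV-ERBα (-1.82 ± 0.18), and Cry2 (-1.25 ± 0.12) fell too, none with overlapping groups. The sources used here do not state the time of day of sampling. In glycolysis and lactate export 9 of 17 rose, Pgam1 by 1.47 ± 0.19, Pgk1 by 1.26 ± 0.17 and the lactate carrier gene Slc16a1 by 0.94 ± 0.13. The 1 that fell was Pfkm, the muscle form of phosphofructokinase (-2.16 ± 0.32).

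In the unfolded protein response 6 of 11 rose, Pdia4 by 0.78 ± 0.12 and the chaperone gene Hspa5 by 0.64 ± 0.11, and Ddit3, which codes for CHOP, fell by 0.74 ± 0.13. Among 15 immediate early and heat shock genes 2 rose, Junb by 1.26 ± 0.21, and 2 fell, shares below those over all genes. Of acute phase and complement genes, 3 of 8 rose. Saa3, a serum amyloid A gene made outside the liver, went from 0.0857, 0.292 and 1.14 CPM to 7.03, 12.9 and 46.6 CPM (5.61 ± 0.68), Saa1 rose by 2.97 ± 0.50, and Orm1 fell by 1.34 ± 0.21. Effector enzymes rose in 7 of 11: Ncf1 (1.31 ± 0.19) and Cybb (1.46 ± 0.33) of the phagocyte oxidase, and Ptges (1.18 ± 0.19) and Ptgs2 (2.27 ± 0.53) of prostaglandin synthesis. Of 13 mitochondrially encoded genes none passed the test, and 5 were called lower with the library GC correlation as a covariate (median -0.58) but 0 with the GC curve (median -0.059).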
